A study of Caenorhabditis elegans with 16 samples.

Results

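Chromosome IV of Caenorhabditis elegans was described as 175 consecutive bins of 100 kb, taken by name from the 1006 bins that tile the genome in the deposited table of small RNA reads. The bins were split by start position alone. Cluster 1 held the 25 bins between 4.5 and 7 Mb from the left end, cluster 2 the 37 bins between 13.5 and 17.2 Mb, and the rest of the chromosome the other 113 bins. No read count was used to choose them.

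The study sequenced small RNAs of whole adult males in 16 libraries of 4 genotypes, to compare piRNA levels between wild type and mutants of prg-1. There were 5 wild type libraries, 5 of a prg-1 null mutant, 3 of a prg-1 RNase mutant, which the design text calls RNase dead, and 3 of a prg-1 mutant lacking the PAZ domain (ΔPAZ). For every genotype, 20 to 30 males were picked at the mid-L4 larval stage, kept at 25 °C and collected 24 h later. The RNA was treated with an acid pyrophosphatase, which also makes 5′-triphosphate small RNAs clonable, beside the 5′-monophosphate ones. The labels name no alleles and leave it unsaid whether each replicate was a culture of its own, and the p-values cover the variation among these libraries, which may be technical. Each library pooled whole animals, so fewer germ cells and less RNA per cell cannot be told apart.

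PRG-1 is the Piwi-type Argonaute of this worm and acts in the germline. It carries piRNAs, which in worms are called 21U-RNAs, and finds transcripts by imperfect base pairing. Each piRNA gene is its own tiny transcription unit, read by RNA polymerase II into a short capped precursor that is trimmed at both ends. Most of these genes lie on chromosome IV in a pair of broad clusters, among and inside protein-coding genes. PRG-1 recruits RNA-dependent RNA polymerases to its targets, which make antisense 22G-RNAs with a 5′ triphosphate, and these load other Argonautes. The PAZ domain of an Argonaute holds the 3′ end of the guide RNA, and the RNase H-like fold of the PIWI domain cuts the target.

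The annotation of the same assembly (WBcel235, called ce11 in the table) places 15363 piRNA genes in the genome. Cluster 1 held 2816 of them (18.3%), at a median of 118 per bin and a range of 0 to 220. Cluster 2 held 11388 (74.1%), at a median of 322 per bin and a range of 24 to 486. The rest of chromosome IV held 510 (3.32%), at a median of 2 per bin. Within cluster 2, 5709 of the piRNA genes lay on the plus strand, and 458 protein-coding genes shared the interval with them. On the left edge of cluster 2 the bin just outside held 3 piRNA genes and the bin just inside 24, the lowest count of the cluster. On its right edge the bin just inside held 149 and the bin just outside 146. The edges of cluster 1 lay where the density was already low, with 0 and 48 piRNA genes in its outermost bins and 1 and 16 in the bins beyond. A bin's count sums every small RNA mapped to 100 kb, on both strands, so it cannot be assigned to one gene, one strand or one class of small RNA.

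Libraries held 396813 to 2288967 reads mapped to the genome, and the ΔPAZ libraries were the shallowest (396813 to 954712). All 175 bins passed the filter on low counts, and 174 had at least 10 reads in every library. Chromosome IV took 15.7% to 46.4% of a library. The 3 bins with most reads took 32.1% to 80.0% of the chromosome's reads, the lowest shares being those of null replicates 4 and 5 and the highest those of ΔPAZ replicate 1 and wild type replicate 3. Within wild type, replicate 3 stood apart, with 27.3% of its library in 1 bin of small nuclear RNA genes (IV:12700001-12800000), where the other wild type libraries had 5.71% to 11.7% and ΔPAZ replicate 1 had 26.7%. The design text counts 13 libraries, and these were taken to be those left without the highest replicate numbers, 5 of the null and 4 and 5 of wild type. The bins hold no mRNA level of prg-1, so the genotype labels were not checked on the gene itself. Since a bin's reads cannot be assigned to one gene, the labelled tissue was not checked on marker genes either.

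**Figure D1:**
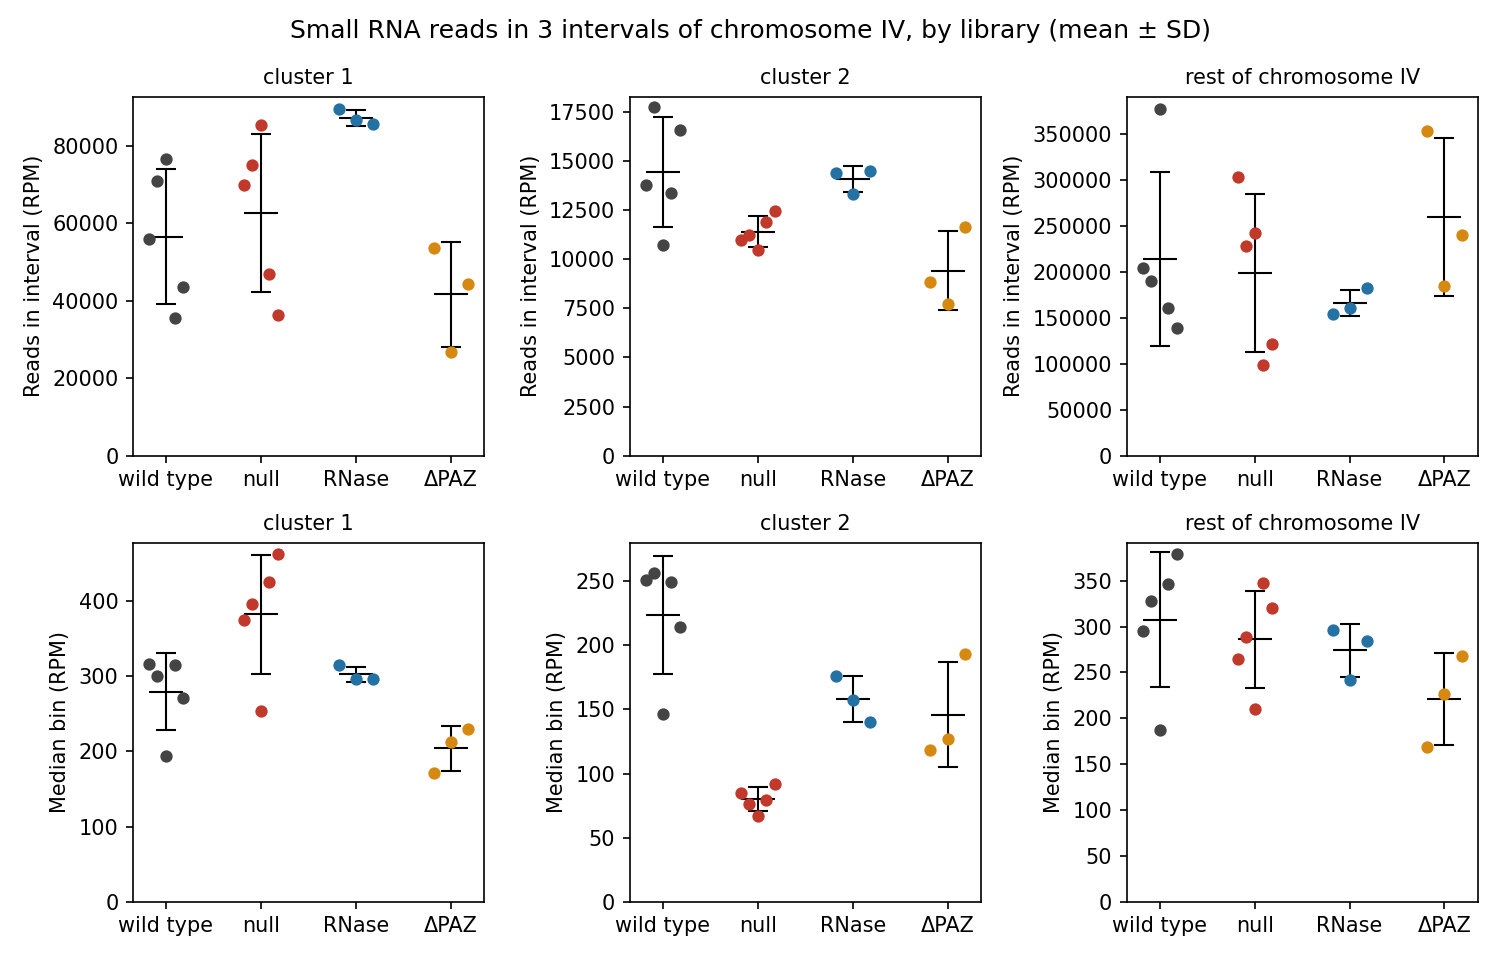
Reads per 1000000 genome-mapped reads (RPM) in cluster 1, cluster 2 and the rest of chromosome IV, as interval sums (top row) and as the median of the interval's bins (bottom row); each point is a library, with mean ± SD. The median cluster 2 bin lay between 66.8 and 91.9 RPM in the 5 null libraries and between 147 and 256 in wild type, while the interval sums of these genotypes overlapped.

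In the prg-1 null males most of cluster 2 lost small RNA reads, while cluster 1 and the rest of the chromosome moved in both directions. The median bin of cluster 2 held 223 ± 46.1 reads per 1000000 genome-mapped reads (RPM) in wild type (SD, n = 5) and 80.0 ± 9.40 in the 5 null libraries. It held 158 ± 17.9 RPM in the 3 RNase libraries and 146 ± 40.7 in the 3 ΔPAZ libraries. The highest null library was lower than the lowest of the wild type in this measure. The RNase and ΔPAZ libraries lay above all null libraries and overlapped wild type.

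The sum over cluster 2 changed less than its median bin. It was 13778, 17753, 10713, 13371 and 16592 RPM in the wild type libraries, and 10977, 11241, 10448, 11899 and 12446 in the null libraries. It was 14392, 13324 and 14506 RPM in the RNase libraries and 8858, 7727 and 11620.3 in ΔPAZ. The null and wild type ranges overlapped through wild type replicate 3, the lowest of its group, and every RNase library lay above every null library. The null mean was 0.790 of the wild type mean (exact permutation test over libraries, two-sided p = 0.0476, 0.12 after Benjamini-Hochberg adjustment over all 6 genotype pairs). The RNase mean was 1.23 times the null mean (exact p = 0.0179, adjusted 0.107), the smallest p that 3 libraries against 5 allow. The ΔPAZ mean was 0.651 of wild type (exact p = 0.0714, adjusted 0.12), and the RNase mean 0.975 of it (exact p = 0.893). No pair passed the threshold after adjustment. Without the cluster's most-read bin, the sum in the null was lower than in wild type by 0.53 on the log2 scale (exact permutation test, adjusted p = 0.0476), and without wild type replicate 3 by 0.43 (adjusted p = 0.0476). Leaving out that replicate removes the overlap named above. Of the 16 omissions of 1 library, the other 15 did not pass the threshold (exact permutation test, adjusted p up to 0.15).

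Reads were spread unevenly over the bins of the cluster. The 23 cluster 2 bins called lower in the null summed to 6390 RPM in wild type and to 1588 in the null. The 3 bins called higher rose from 2454 to 4848 RPM, and the 11 bins without a call held 5598 and 4967. These sums describe bins chosen by their own change and carry no test.

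Reads that the authors counted at annotated piRNA loci over the whole genome, from the deposited summary, were set beside the cluster 2 sums. They came to 2039 ± 774 RPM in wild type (n = 5), an amount equal to 14% ± 3.6 of the cluster 2 sum. In the null they were 377 ± 148 RPM, in the RNase mutant 3155 ± 869 and in ΔPAZ 981 ± 536. The authors' 21U-only count was 1266 ± 631 RPM in wild type and 12.1 ± 5.77 in the null, 1089 ± 307 in the RNase mutant and 617 ± 384 in ΔPAZ. The whole-genome count at piRNA loci equalled at most 26.5% of the cluster 2 sum (RNase replicate 2). Mean cluster 2 reads fell by 3039 RPM from wild type to null, and mean piRNA-locus reads fell by 1663 RPM; the former counts the cluster's 3.7 Mb and the latter annotated loci of the whole genome.

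**Figure D2:**
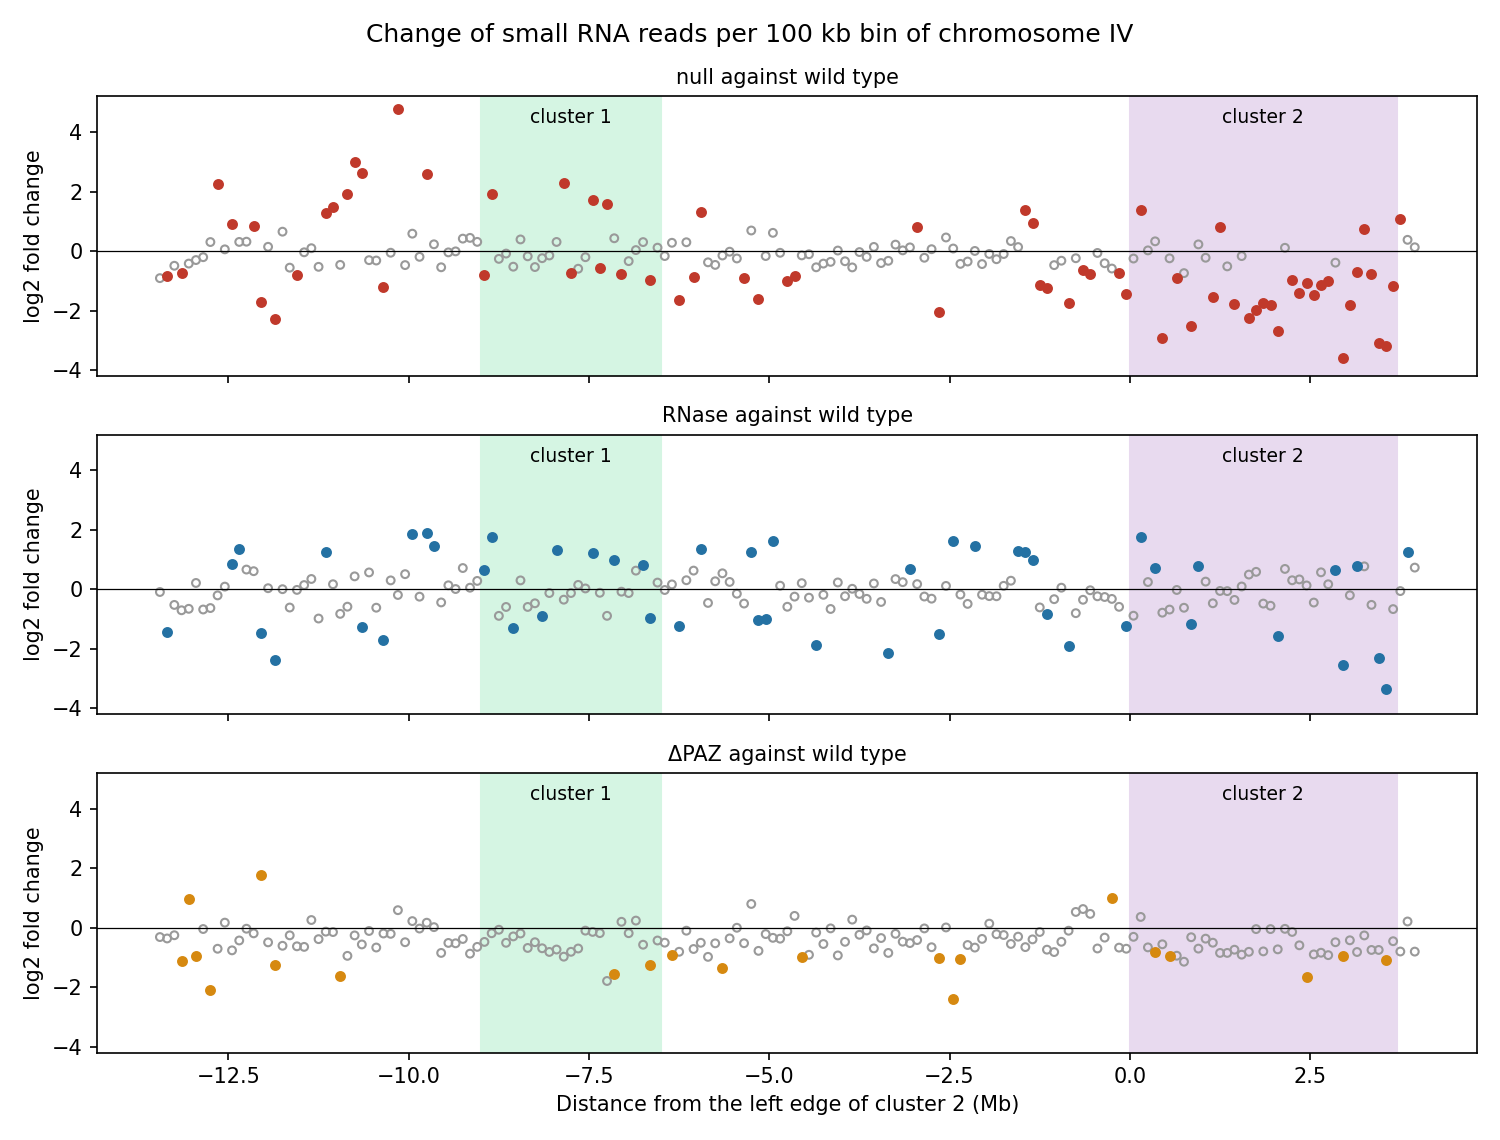
Fitted log2 fold change of each 100 kb bin along chromosome IV for each mutant against wild type, by distance from the left edge of cluster 2 in Mb; filled points passed the test (edgeR, adjusted p under 0.05), open points did not, and shading marks the clusters. In the null, 23 of 37 cluster 2 bins were lower, while the top single bin rose by 4.79 left of cluster 1.

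Bin by bin, 23 of the 37 cluster 2 bins were lower and 3 higher in the null than in wild type (edgeR's quasi-likelihood test on all 16 libraries, Benjamini-Hochberg adjusted over all 1006 bins). Over the genome 28.2% of bins were called lower and 12% higher in this comparison, 40.3% in all (44.6% with DESeq2). In cluster 1, 5 of 25 bins were lower and 4 higher, and in the rest of the chromosome 20 of 113 were lower and 15 higher. The median log2 fold change was -1.0 in cluster 2, -0.17 in cluster 1 and -0.15 in the rest, beside -0.29 over all bins. Scaling with TMM factors (edgeR's correction for unequal library make-up) moved the median of all bins to 0.02, with 19% of all bins lower and 23.7% higher. It left cluster 2 at 21 lower and 5 higher (median -0.73) and turned the balance elsewhere, to 1 lower and 7 higher in cluster 1 and 18 lower and 31 higher in the rest. In 18 cluster 2 bins all null libraries were below all wild type ones, as in 15% of all bins. In 1 bin all null libraries were above them, as in 9.74% of all bins.

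The deepest losses sat in the right arm of cluster 2. Of its 18 bins right of the midpoint, 15 were lower and 1 was higher in the null, against 8 lower and 2 higher among the 19 on the left. Over all bins 28.2% were lower and 12% higher. The lowest value left of the midpoint was -2.91. The bin IV:16400001-16500000 holds 193 piRNA genes and the microRNA gene mir-1021. Its wild type libraries held 498, 925, 391, 541 and 711 RPM and its null libraries 48.1, 49.9, 55.5, 60.8 and 41.3. Its RNase libraries held 123, 98 and 92.1 RPM and its ΔPAZ libraries 204, 307 and 437. Every null and RNase library lay below every wild type library, and the ΔPAZ libraries lay between, with 1 of them inside the wild type range. The log2 fold change was -3.58 ± 0.27 (SE), adjusted p = 1.46e-09 in the null (edgeR). It was -2.55 ± 0.31 (SE), adjusted p = 2.09e-06 in the RNase mutant and -0.95 ± 0.29 (SE), adjusted p = 0.0416 in ΔPAZ. RNase against null was 1.03, adjusted p = 0.00972 (edgeR), a call lost without RNase replicate 1 (0.89, adjusted p = 0.0685). The ΔPAZ call was lost under TMM scaling (-0.56, adjusted p = 0.147), with DESeq2, and in 12 of the 16 omissions of 1 library, ΔPAZ replicates 1 and 2 among them (-0.72 at the weakest, adjusted p up to 0.191).

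The bin IV:17000001-17100000 was among the 3 most-read bins of cluster 2 in wild type. It holds 178 piRNA genes, mir-1832b and snr-1, which encodes a core Sm protein of the spliceosome. Its wild type libraries held 1297, 2389.5, 1281, 1208 and 1376 RPM, null libraries 158, 177, 126, 209.9 and 154, RNase libraries 173, 160.4 and 111 and ΔPAZ libraries 469, 606 and 1034. The null and RNase libraries shared 1 range far below wild type, and all 3 ΔPAZ libraries also lay below every wild type library. The log2 fold change was -3.19 ± 0.27 (SE), adjusted p = 6.04e-09 in the null (edgeR), -3.35 ± 0.34 (SE), adjusted p = 1.4e-07 in the RNase mutant and -1.10 ± 0.30 (SE), adjusted p = 0.0332 in ΔPAZ. The ΔPAZ call was lost under TMM scaling and when wild type replicate 2, the highest library, or ΔPAZ replicate 1 or 2 was left out (-0.87 at the weakest, adjusted p up to 0.154).

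Its neighbour IV:16900001-17000000 carries 184 piRNA genes and, among others, arf-6, a small GTPase gene of membrane traffic, and rad-54.B, a DNA repair gene. The wild type libraries held 582, 746, 417, 402 and 593 RPM, null libraries 66.6, 70.2, 39.8, 65.6 and 77.2, RNase libraries 120.5, 111 and 96.6 and ΔPAZ libraries 287, 253 and 436. Null, RNase and wild type did not overlap, and null was the lowest. The log2 fold change was -3.10 ± 0.25 (SE), adjusted p = 3.13e-09 in the null and -2.32 ± 0.29 (SE), adjusted p = 3.1e-06 in the RNase mutant (edgeR), and -0.75 in ΔPAZ (adjusted p = 0.0715). RNase against null was 0.78, adjusted p = 0.0406 (edgeR). That call was lost in 7 of the 16 omissions of 1 library (0.65 to 0.86, adjusted p up to 0.158). In all 3 of these bins, which were picked by their size of change, the RNase mutant was also lower than wild type.

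**Figure D3:**
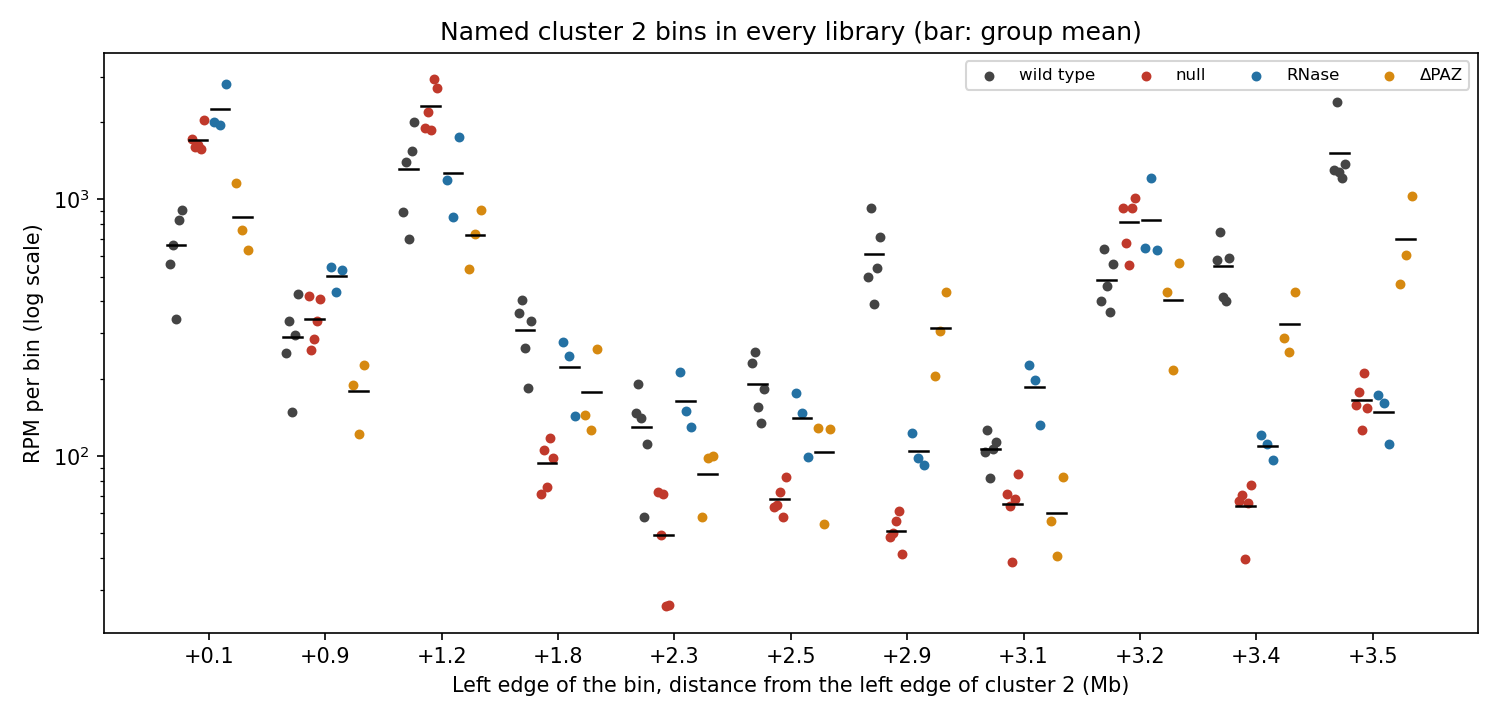
RPM (log scale) of 11 cluster 2 bins in every library, placed by the distance of the bin's left edge from the left edge of cluster 2; colours mark genotypes and bars group means. At +2.9, +3.4 and +3.5 Mb all null and RNase libraries lay below wild type, and at +2.9 and +3.4 Mb the RNase libraries lay above the null. The bins at +1.8, +2.3 and +2.5 Mb were low in the null with the RNase libraries higher.

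In the 3 bins of cluster 2 with most piRNA genes the RNase mutant lay above the null. The bin IV:16000001-16100000 holds 486 piRNA genes, the most on the chromosome, and jac-1, which encodes a catenin of cell junctions. Wild type libraries held 230.3, 254, 155, 134 and 182 RPM, null libraries 63.3, 64.4, 72.5, 57.6 and 82.6, RNase libraries 176, 147 and 99.3 and ΔPAZ libraries 129, 54.3 and 127. The null libraries lay below all wild type and all RNase libraries, and RNase overlapped wild type. The log2 fold change of the null against wild type was -1.49 ± 0.26 (SE), adjusted p = 9.78e-05, and that of RNase against null 1.05 ± 0.29 (SE), adjusted p = 0.0118 (edgeR), the latter lost without RNase replicate 1 (0.85, adjusted p = 0.102). Against wild type the RNase value was -0.44 (adjusted p = 0.274) and the ΔPAZ value -0.90 (adjusted p = 0.0647).

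The bin IV:15800001-15900000 (442 piRNA genes) also carries the guanylate cyclase gene gcy-25 and the pheromone receptor gene daf-38. It held 147, 189.8, 141, 57.6 and 111 RPM in wild type, 72.5, 49.3, 70.8, 25.9 and 26.1 in the null, 212, 149.5 and 129.7 in the RNase mutant and 58, 98 and 99.5 in ΔPAZ. Null replicates 1 and 3 lay above wild type replicate 4, the lowest of its group, and below the other 4 wild type libraries. All RNase libraries lay above all null libraries. The null against wild type difference was -1.41 ± 0.34 (SE), adjusted p = 0.00194, and RNase against null was 1.75 ± 0.37 (SE), adjusted p = 0.00127 (edgeR). In IV:15300001-15400000, with 430 piRNA genes and the T-box genes tbx-39 and tbx-40, wild type held 359, 403, 264, 184 and 335 RPM and the null 70.8, 106, 75.6, 117 and 97.9. RNase libraries held 279, 245 and 143 RPM there and ΔPAZ libraries 144, 127 and 261. The null range lay below those of all 3 other genotypes. The null against wild type difference was -1.73 ± 0.27 (SE), adjusted p = 2.44e-05, and RNase against null was 1.25 ± 0.30 (SE), adjusted p = 0.0036 (edgeR).

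Across cluster 2, 20 of 37 bins were higher in the RNase mutant than in the null and none was lower, at a median log2 fold change of 1.03. Over the genome 13.5% of bins were higher and 7.65% lower in this comparison, at a median of 0.19. Cluster 1 had 2 bins higher and 2 lower, and the rest had 12 higher and 9 lower. With TMM factors, which called 11.4% of all bins higher and 14.1% lower, cluster 2 stood at 20 higher and 1 lower (median 0.81), cluster 1 at 1 higher and 5 lower, and the rest at 8 higher and 15 lower. In 25 cluster 2 bins every RNase library lay above every null library, beside 25.7% of all bins. The largest of these differences, chosen after the values were seen, was in IV:15100001-15200000 (328 piRNA genes). It held 94.2, 88.7, 39.8, 76.8 and 57.3 RPM in wild type, 17.7, 8.12, 7.86, 17.4 and 25 in the null and 116, 106 and 81.4 in the RNase mutant. RNase and null did not overlap, and RNase and wild type did. RNase against null was 2.73 ± 0.37 (SE), adjusted p = 7.61e-06 (edgeR), and RNase against wild type 0.50 (adjusted p = 0.306).

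Against wild type, the RNase mutant had 5 cluster 2 bins lower and 5 higher, at a median of -0.05. In this comparison 16.6% of all bins were lower and 14.4% higher (31% in all), so the shares in cluster 2 were near those of the genome. Both mutants were compared with the same 5 wild type libraries, so their values are set side by side and no overlap is tested. The largest rises in the RNase mutant after that of IV:13600001-13700000 were in 2 bins dense in piRNA genes. IV:16600001-16700000 (358 piRNA genes) holds sta-1, a STAT transcription factor gene, and set-26, a chromatin regulator gene. Its wild type libraries held 104, 126, 81.6, 106 and 113 RPM, null libraries 70.8, 63.8, 38.4, 67.7 and 84.8, RNase libraries 225, 197 and 132 and ΔPAZ libraries 55.4, 40.7 and 82.7. All RNase libraries lay above wild type and all null libraries but replicate 5 lay below it. The RNase change was 0.80 ± 0.29 (SE), adjusted p = 0.0372, and the null change -0.71 ± 0.26 (SE), adjusted p = 0.0329 (edgeR), which was lost under TMM scaling and without any 1 of wild type replicates 2 and 5 and null replicates 2, 3 and 4 (-0.56 at the weakest, adjusted p up to 0.0945). IV:14400001-14500000 (389 piRNA genes) holds tra-3, a calpain gene of sex determination, and mir-2217b-3. It held 251, 334, 149, 297 and 427 RPM in wild type, 418, 259, 285, 336 and 408 in the null and 543, 436 and 531 in the RNase mutant, all of whose libraries lay above both other groups. The RNase change was 0.79 ± 0.28 (SE), adjusted p = 0.0363 (edgeR). Both RNase calls were lost without wild type replicate 1 or 4 or RNase replicate 1 or 2, that of the sta-1 bin also without wild type replicate 3 and that of the tra-3 bin without RNase replicate 3 (log2 fold changes down to 0.64 and 0.62, adjusted p up to 0.184 and 0.116, edgeR). Leaving out wild type replicate 1, or RNase replicate 1 or 2, brought the calls from 10 to 6.

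The 3 bins of cluster 2 that rose in the null were spread along the interval. The bin IV:13600001-13700000 holds 221 piRNA genes and the SmY RNA genes smy-8, smy-9 and smy-10, whose nuclear RNAs take part in trans-splicing. The wild type libraries held 559, 666, 341, 828 and 912 RPM, null libraries 1725, 1594, 1622, 1574 and 2034, RNase libraries 2003, 1953 and 2822 and ΔPAZ libraries 1159, 759.6 and 635. All null and RNase libraries lay above all wild type and all ΔPAZ libraries. The rise was 1.37 ± 0.26 (SE), adjusted p = 0.000228 in the null and 1.77 ± 0.29 (SE), adjusted p = 7.43e-05 in the RNase mutant (edgeR).

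The bin IV:14700001-14800000 (252 piRNA genes, with arl-8, a lysosomal GTPase gene, and gdi-1, a regulator of Rab GTPases) was higher in the null. It held 896, 1392, 701, 1547 and 2004 RPM in wild type and 1900.1, 2195, 1860.2, 2936 and 2714 in the null, with an overlap at wild type replicate 5. RNase libraries held 1188, 850.0 and 1747 RPM, inside the wild type range. The null rise was 0.83 ± 0.29 (SE), adjusted p = 0.0262 (edgeR), and it lost its call without any 1 of 4 libraries (wild type 1 or 3, null 4 or 5; adjusted p up to 0.0698). The bin IV:16700001-16800000, with mir-789-1, held 400.4, 643, 457, 362 and 561 RPM in wild type and 921, 676, 552, 925 and 1013 in the null, again with some overlap. Its rise was 0.75 ± 0.27 (SE), adjusted p = 0.0313 (edgeR), a call lost without any 1 of wild type replicates 1 and 4 and null replicates 1, 4 and 5 (0.66 at the lowest, adjusted p up to 0.0788) and with the 13 libraries taken as those of the design text.

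The most-read bin of cluster 2 in wild type, IV:14000001-14100000, holds mir-52, a member of the mir-51 family of abundant microRNAs. Wild type libraries held 2221, 2807, 1431, 1191 and 1825 RPM, null libraries 1447, 1759.6, 1885, 1493 and 1423, RNase libraries 1336, 1097 and 1120.1 and ΔPAZ libraries 1058, 641 and 1212. The null libraries lay inside the wild type range, and the other 2 mutants overlapped its lower end. The null value was -0.24 (adjusted p = 0.475; the log2 value was 0.10 under TMM scaling), and ΔPAZ was called at -0.97 ± 0.30 (SE), adjusted p = 0.0459 (edgeR). That ΔPAZ call was lost under TMM scaling and in 13 of the 16 omissions of 1 library, the exceptions being wild type replicates 3 and 4 and ΔPAZ replicate 3 (-1.16 to -0.74, adjusted p up to 0.188).

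**Figure D4:**
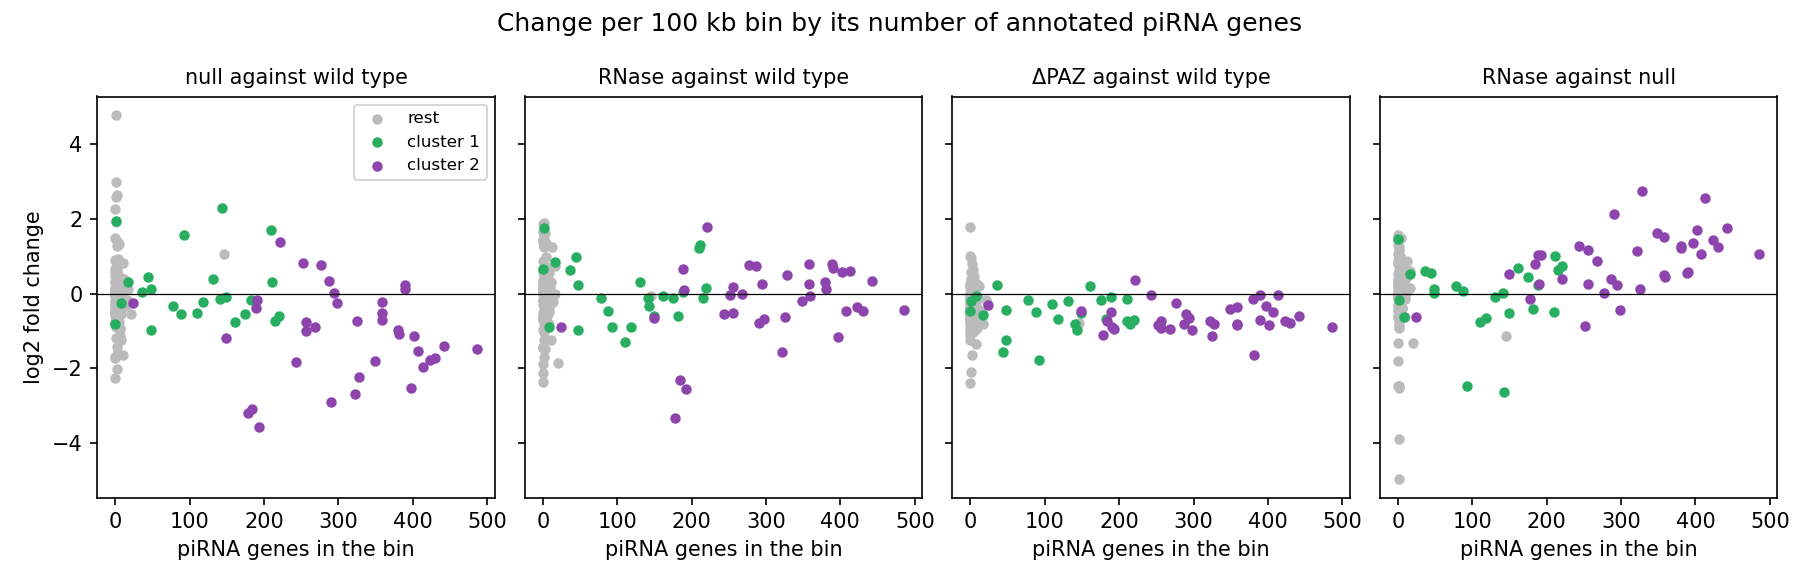
Log2 fold change of each of the 175 bins against its number of annotated piRNA genes, coloured by interval, for the 3 mutants against wild type and for RNase against null. Bins with 300 or more piRNA genes lay at a median of -1.41 in the null against wild type and of 1.25 in RNase against null.

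Ordered by gene number, lower calls in the null made up the largest share among the densest bins. Over the genome 28.2% of bins were lower and 12% higher in the null. Of the 19 bins of chromosome IV with 300 or more piRNA genes, 14 were lower in the null and none was higher (median -1.41). Of the 24 bins with 150 to 299, 11 were lower and 4 higher (median -0.47). The 15 bins with 25 to 149 had 2 lower and 3 higher (median -0.08), the 83 with 1 to 24 had 14 lower and 12 higher (-0.17), and the 34 with 0 had 7 lower and 3 higher (-0.13). The same densest 19 bins were higher in RNase than in null in 14 cases and lower in none (median 1.25), beside 13.5% and 7.65% of all bins. Against wild type they had 2 higher and 2 lower in the RNase mutant, and 1 lower in ΔPAZ. Over all bins 14.4% were higher and 16.6% lower in the RNase mutant, and 9.34% lower in ΔPAZ. With TMM factors the densest bins stood at 13 lower and 1 higher in the null, beside 19% and 23.7% of all bins.

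Within cluster 2 the number of piRNA genes and the null change were only weakly related. Across its 37 bins Pearson's r between the gene number and the log2 fold change of null against wild type was -0.07 and Spearman's coefficient -0.12. For RNase against null r was 0.51 and Spearman's coefficient 0.55. Over all 175 bins r was -0.35 for null against wild type and 0.38 for RNase against null. These bins share their libraries and neighbouring bins are not independent, so the coefficients are descriptions. For the level in place of the change, in wild type r with the mean RPM of cluster 2 bins was -0.34.

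Other annotated content of chromosome IV was counted in the same way, and is set beside the genome's 28.2% lower and 12% higher in the null, 16.6% and 14.4% in the RNase mutant and 9.34% and 0.994% in ΔPAZ. Of 39 bins with microRNA genes, 8 were lower and 6 higher in the null, 3 lower and 7 higher in the RNase mutant, and 6 lower and 1 higher in ΔPAZ. Of 44 bins with tRNA genes, 13 were lower (29.5%) and 6 higher in the null, a share near that of the genome, and of 68 with small nuclear, nucleolar or ribosomal RNA genes, 15 were lower (22.1%) and 10 higher. The 4 bins with replication-type histone genes had 2 lower in the null and none higher, at a median of -0.65. The 8 bins with major sperm protein genes, which encode the cytoskeletal protein of crawling sperm, had no call in the null (median -0.28) and 2 lower in the RNase mutant. Of the 11 bins with none of these classes 1 was lower in the null. With TMM factors the microRNA bins stood at 7 lower and 10 higher in the null, the tRNA bins at 10 lower and 11 higher, and the nuclear RNA bins at 12 lower and 16 higher. Over all bins TMM factors gave 19% lower and 23.7% higher.

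In cluster 1 of the null, 4 bins rose and 5 fell. The 3 largest rises in the null exceeded any of the falls in size. The bin IV:5600001-5700000 (143 piRNA genes) holds skn-1, a transcription factor gene of stress defence, and bec-1, a Beclin gene of autophagy. Its wild type libraries held 343, 335, 153, 339 and 380.0 RPM, null libraries 993, 1279, 1525, 2114 and 1661, RNase libraries 265, 236 and 232 and ΔPAZ libraries 90.7, 169 and 208. The null libraries lay far above all other libraries. All RNase and ΔPAZ libraries lay below every wild type library except the lowest, wild type replicate 3. The lowest ΔPAZ library lay below that one as well. The rise was 2.29 ± 0.27 (SE), adjusted p = 7.15e-07 in the null (edgeR), beside -0.35 in the RNase mutant (adjusted p = 0.422).

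The bin IV:4600001-4700000 holds 1 piRNA gene, the SUMO-conjugating enzyme gene ubc-9 and the sperm-function gene spe-51. It held 174, 239, 121, 315 and 239 RPM in wild type, 861, 797, 782, 861 and 858 in the null, 696, 592 and 917 in the RNase mutant and 121, 213 and 235 in ΔPAZ. Null and RNase libraries lay above every wild type and ΔPAZ library. The rise was 1.94 ± 0.25 (SE), adjusted p = 1.76e-06 in the null and 1.76 ± 0.27 (SE), adjusted p = 3.5e-05 in the RNase mutant (edgeR). In IV:6000001-6100000, with 210 piRNA genes and the potassium-chloride cotransporter gene kcc-2, wild type held 287, 359.6, 193, 276 and 517 RPM and the null 812, 980.1, 899, 1338 and 1301. RNase libraries held 809, 472 and 987 RPM and ΔPAZ libraries 212, 312 and 361, so that RNase overlapped both wild type and null. The rise was 1.71 ± 0.27 (SE), adjusted p = 2.96e-05 in the null and 1.21 ± 0.30 (SE), adjusted p = 0.00377 in the RNase mutant (edgeR).

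Falls in cluster 1 were smaller. The leftmost bin of the cluster, with 0 piRNA genes and the small GTPase gene sar-1, held 242, 248, 138, 226 and 205 RPM in wild type, 112, 118, 98.7, 156 and 122 in the null and 314, 359 and 322 in the RNase mutant. Null libraries lay mostly below and RNase libraries above the wild type range, with null replicate 4 above wild type replicate 3. The null change was -0.80 ± 0.21 (SE), adjusted p = 0.0046, and the RNase change, of opposite sign, 0.64 ± 0.24 (SE), adjusted p = 0.0453 (edgeR). That RNase call was lost in 11 of the 16 omissions of 1 library, each of the RNase libraries among them (0.52 to 0.70, adjusted p up to 0.152), and with the 13 libraries taken as those of the design text. RNase against null was 1.45 ± 0.24 (SE), adjusted p = 8.05e-05. The bin IV:6400001-6500000 holds 161 piRNA genes, the meiotic chromosome axis gene htp-2 and the RNA-binding PUF gene puf-11. It held 211, 188, 156, 120.3 and 137 RPM in wild type and 92.8, 117, 96.1, 90.4 and 84.8 in the null, with no overlap. The change was -0.76 ± 0.21 (SE), adjusted p = 0.00566 (edgeR), a call lost under TMM scaling.

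The bin IV:6800001-6900000 was named as a fall in all 3 mutants, and these calls depended on wild type replicate 1. The wild type libraries held 514, 183, 157, 189 and 179 RPM, null libraries 155, 145, 97.9, 121 and 99.5, RNase libraries 128, 102 and 142 and ΔPAZ libraries 118, 91.9 and 99.5. Wild type replicate 1 was far above the other 4, although every null, RNase and ΔPAZ library also lay below every wild type library. The change was -0.99 ± 0.29 (SE), adjusted p = 0.00937 in the null (edgeR), and without that library -0.52 (adjusted p = 0.0746), with the RNase and ΔPAZ calls lost as well (-0.51 and -0.78). These 2 calls were also lost without any 1 library of their own genotype, that of ΔPAZ without RNase replicate 3 too, and all 3 under TMM scaling.

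The bin of cluster 1 with most reads in wild type, IV:5500001-5600000, holds mir-228, mir-790 and 211 piRNA genes, with the sex-determination gene fem-1 and the telomere-binding protein gene tebp-2. Wild type libraries held 24736, 39149, 24314, 15979.9 and 22718 RPM, null libraries 26274, 40129.9, 48944, 26604 and 15156, RNase libraries 66209, 62817 and 60183 and ΔPAZ libraries 20372, 6434 and 18958. The RNase libraries lay above all others and close together, and the ΔPAZ libraries spread widely. The RNase rise was 1.31 ± 0.46 (SE), adjusted p = 0.0349 (edgeR), and it lost its call without any 1 of wild type replicates 1, 4 and 5 and the 3 RNase libraries (1.19 at the lowest, adjusted p up to 0.0905) and with the 13 libraries taken as those of the design text. The sum over cluster 1, of which this bin is a part, was 87147 ± 2111 RPM in the RNase mutant and 56449 ± 17433 in wild type. That ratio of 1.54 had an exact permutation p of 0.0357 (0.2 after adjustment over 6 pairs), and without the bin the RNase sum was lower than wild type by 0.37 on the log2 scale. The null sum was 62629 ± 20374 RPM (exact permutation p = 0.619) and the ΔPAZ sum 41597 ± 13638 (exact permutation p = 0.25).

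Further bins of cluster 1 that the rule names hold major sperm protein or sperm-specific genes. The bin IV:5300001-5400000 holds msp-58, msp-59, msp-65 and the meiotic axis gene htp-1, beside 118 piRNA genes. Its wild type libraries held 1024, 1451, 712, 1129.8 and 1287 RPM, null libraries 882, 1011, 826, 1094 and 938, RNase libraries 719.6, 519.7 and 560.0 and ΔPAZ libraries 579.6, 639 and 859.9. RNase replicate 1 lay just above wild type replicate 3, the single overlap of these groups. The RNase change was -0.90 ± 0.26 (SE), adjusted p = 0.0111 (edgeR), lost without RNase replicate 2 or 3 (adjusted p up to 0.0696). The bin IV:4900001-5000000, with the sperm-specific genes ssp-9 and ssq-2, held 1086, 745, 323, 1094 and 918 RPM in wild type and 319, 319 and 386 in the RNase mutant. Wild type replicate 3 fell inside the RNase range and the other 4 lay above it. The RNase change was -1.29 ± 0.43 (SE), adjusted p = 0.0263 (edgeR), lost without wild type replicate 1 or any RNase library (-1.17 at the weakest, adjusted p up to 0.0939). The bin IV:5000001-5100000, with msp-53, msp-55 and msp-57, held 2035, 2756, 1334, 2211 and 2499 RPM in wild type and 2052, 3378 and 2594 in the RNase mutant, which overlapped (0.30, adjusted p = 0.443).

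The bins of cluster 1 with most piRNA genes showed small changes in the null. IV:5800001-5900000 (220 piRNA genes, with spe-27, a sperm activation gene) held 345, 244, 141, 247 and 243 RPM in wild type and 132, 172, 129, 217 and 158 in the null (-0.59, adjusted p = 0.0651). IV:5700001-5800000 (215 piRNA genes) held 203, 210.2, 109, 105 and 153 RPM in wild type and 94.5, 102, 62.5, 83 and 125 in the null, with overlap. It was called lower in the null at -0.75 ± 0.26 (SE), adjusted p = 0.0279 (edgeR), lost under TMM scaling and without any 1 of wild type replicates 1 and 2 and null replicates 3 and 4 (-0.61 at the weakest, adjusted p up to 0.0874). Across the 25 bins of cluster 1, r between gene number and the null change was -0.05.

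**Figure D5:**
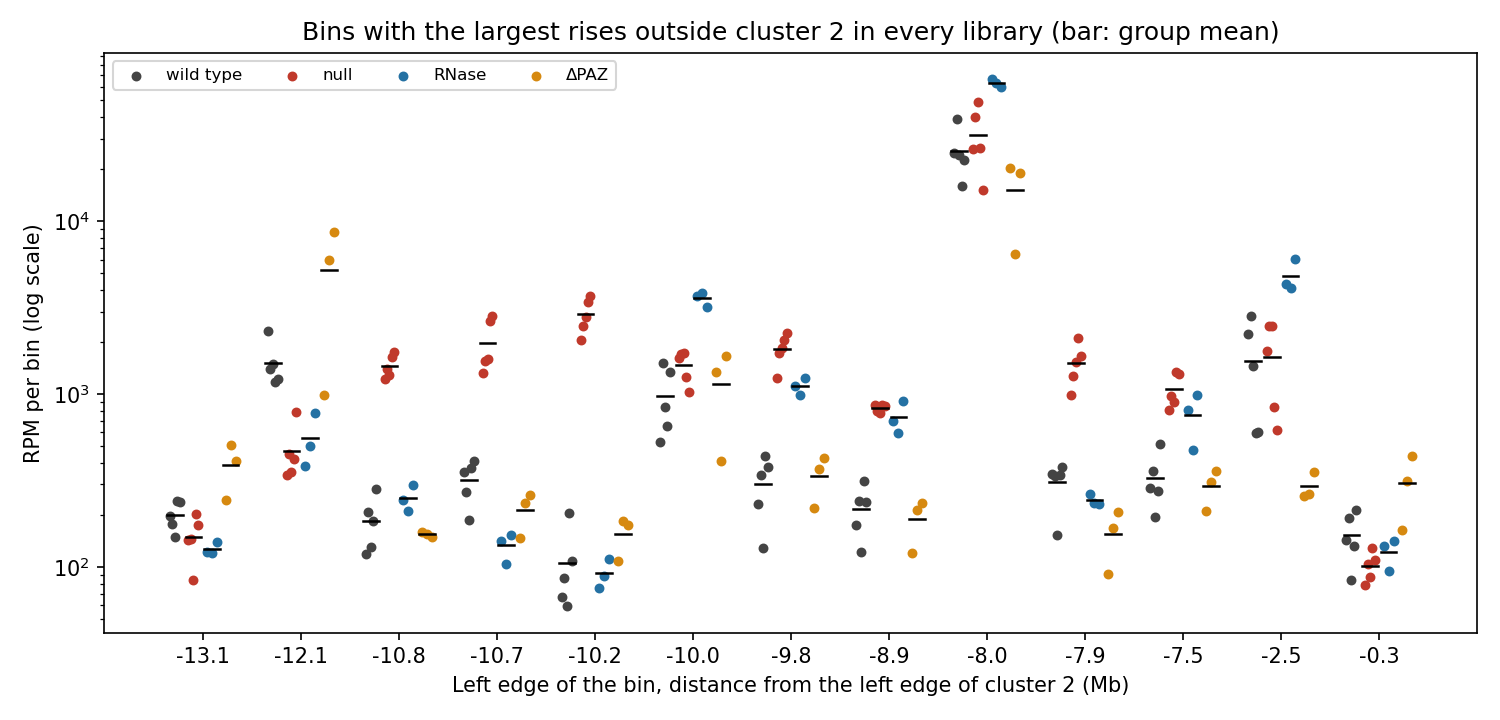
RPM (log scale) of 13 bins outside cluster 2 that were named for a rise in any mutant, in every library, by the distance of the bin's left edge from the left edge of cluster 2; colours mark genotypes and bars group means. At -10.2 Mb the 5 null libraries lay between 2051 and 3706 RPM, and every other library at or below 205.

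The largest change on the chromosome was a rise outside both clusters. The bin IV:3300001-3400000 holds 1 piRNA gene, the RNA-binding protein gene hrpa-1, the cilium gene dyf-3 and the proton pump gene vha-19. The wild type libraries held 67.3, 86.6, 59.2, 205 and 109 RPM, null libraries 2051, 2473, 2810.0, 3416 and 3706, RNase libraries 75.7, 88.6 and 112 and ΔPAZ libraries 108, 184 and 176. The null stood alone, and the other 3 genotypes overlapped. The rise was 4.79 ± 0.34 (SE), adjusted p = 6.88e-10 (edgeR), and RNase against null was -4.98 ± 0.43 (SE), adjusted p = 1.82e-08.

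The bins left of it held 2 further large rises. The bin IV:2700001-2800000, with the atlastin gene atln-1, held 119, 207, 131, 184 and 284 RPM in wild type, 1224, 1397, 1288, 1649 and 1749 in the null and 243, 211 and 299 in the RNase mutant. The bin IV:2800001-2900000, with a group of C-type lectin genes (clec-80, clec-82, clec-83, clec-84 and clec-85), held 355, 270.4, 186, 372 and 408 RPM in wild type, 1327, 1544, 1602, 2653 and 2814 in the null and 142, 105 and 154 in the RNase mutant. In both, null libraries lay above every other library, and in the lectin bin the RNase libraries lay below every wild type library. The rises in the null were 2.98 ± 0.25 (SE), adjusted p = 4.32e-09, and 2.64 ± 0.28 (SE), adjusted p = 1.59e-07 (edgeR). In the RNase mutant the lectin bin was lower than wild type at -1.25 ± 0.32 (SE), adjusted p = 0.005. Farther right, IV:3700001-3800000, with the cilium kinesin gene osm-3, held 231, 339, 128, 436 and 379 RPM in wild type, 1246, 1718, 1849, 2042 and 2248 in the null and 1109.8, 994 and 1243 in the RNase mutant. It rose in both mutants, by 2.59 ± 0.30 (SE), adjusted p = 3.7e-07 and 1.88 ± 0.32 (SE), adjusted p = 9.32e-05 (edgeR), without overlap with wild type. Close to it, IV:3500001-3600000 carries 0 piRNA genes, the cell-death and engulfment GTPase gene ced-10, and osm-9, a sensory ion channel gene. It held 526, 1519, 839, 654 and 1343 RPM in wild type, 1626, 1714, 1719.5, 1252 and 1024 in the null, 3709, 3856 and 3179 in the RNase mutant and 1351, 411 and 1655 in ΔPAZ. The RNase libraries lay above all others, and the other 3 genotypes overlapped. The RNase rise was 1.87 ± 0.38 (SE), adjusted p = 0.000546 (edgeR), and the null value 0.59 (adjusted p = 0.171).

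Among bins outside the clusters that fell, IV:1600001-1700000 had 0 piRNA genes and carries the ribosomal protein gene rps-28 and several nuclear receptor genes. Wild type libraries held 261, 313, 126, 292 and 291 RPM, null libraries 50.6, 67.3, 48.9, 49.2 and 48.9, RNase libraries 50.5, 55.9 and 42 and ΔPAZ libraries 83.2, 116 and 120.5. Every mutant library lay below every wild type library. The changes were -2.27 ± 0.25 (SE), adjusted p = 2.51e-07 in the null, -2.37 ± 0.31 (SE), adjusted p = 4.5e-06 in the RNase mutant and -1.26 ± 0.30 (SE), adjusted p = 0.0207 in ΔPAZ (edgeR). The ΔPAZ call was lost without ΔPAZ replicate 1 or 2 (-1.12 at the weakest, adjusted p up to 0.103). It was also lost with the 13 libraries taken as those of the design text (-1.12, adjusted p = 0.0594, edgeR). IV:12600001-12700000, with 0 piRNA genes and the proton pump gene vha-7, changed by -1.74 ± 0.26 (SE), adjusted p = 1.34e-05 in the null and -1.89 ± 0.32 (SE), adjusted p = 9.21e-05 in the RNase mutant (edgeR), and by -0.10 in ΔPAZ (adjusted p = 0.827). IV:10800001-10900000, with the histidyl-tRNA synthetase gene hars-1, changed by -2.03 ± 0.26 (SE), adjusted p = 2e-06 in the null and -1.49 ± 0.31 (SE), adjusted p = 0.000763 in the RNase mutant (edgeR). IV:10100001-10200000, with msp-38 and the sperm chromatin gene spch-1, held 2368, 3867, 1326, 3179.6 and 3733 RPM in wild type and 679, 607 and 685 in the RNase mutant, without overlap. Its RNase change was -2.14 ± 0.35 (SE), adjusted p = 6.43e-05, beside -0.33 in the null (adjusted p = 0.363).

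The ΔPAZ mutant moved few bins of chromosome IV past the test. Cluster 2 had 5 bins lower and 0 higher, cluster 1 had 2 and 0, and the rest 11 and 3, where 9.34% of all bins were lower and 0.994% higher (10.3% in all). Its medians were -0.74 in cluster 2, -0.49 in cluster 1 and -0.42 in the rest, beside -0.43 over all bins (-0.03 with TMM factors, where cluster 2 had a median of -0.37). These counts rested on single libraries. Without wild type replicate 3 they rose to 19 in cluster 2, 10 in cluster 1 and 43 in the rest, and without ΔPAZ replicate 1, or without replicate 2, they were 0, 0 and 1. With TMM factors, which called 1.59% of all bins lower and 2.78% higher (4.37% in all), they were 1 lower in cluster 2, 1 lower in cluster 1, and 3 lower with 4 higher in the rest. DESeq2 called 8.65% of all bins.

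Compared with the null, ΔPAZ had 14 cluster 2 bins higher and 5 lower (17.5% and 22.2% over the genome). The median there was 0.08. RNase against ΔPAZ gave 12 higher and 3 lower in cluster 2 (24.9% and 9.44% over the genome), at a median of 0.63, beside 0.25 over all bins. With TMM factors the balance of RNase against ΔPAZ was narrower, at 9 higher and 6 lower in cluster 2 (20.97% and 16.998% over the genome). The median there was then 0.38, beside -0.03 over all bins. The largest ΔPAZ fall in cluster 2 was in IV:15900001-16000000 (381 piRNA genes), where wild type libraries held 269.8, 159, 195, 124 and 109.8 RPM and ΔPAZ libraries 32.8, 57.3 and 70.2. All ΔPAZ libraries lay below all wild type libraries. The change was -1.65 ± 0.33 (SE), adjusted p = 0.0113 in ΔPAZ, beside -1.09 ± 0.26 (SE), adjusted p = 0.00177 in the null and 0.13 in the RNase mutant (adjusted p = 0.758), all from edgeR. The ΔPAZ call was lost without ΔPAZ replicate 1 or 2 (-1.43 at the weakest, adjusted p up to 0.067).

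In 2 named bins the RNase mutant was called higher and ΔPAZ lower than wild type. IV:11000001-11100000 holds mir-51 and mir-53, further members of the mir-51 family. Its wild type libraries held 2239, 2842, 1451, 594 and 606 RPM, null libraries 1787, 2484, 2488, 845 and 618, RNase libraries 4323, 4129 and 6047 and ΔPAZ libraries 257, 264 and 356. Every ΔPAZ library lay below and every RNase library above all wild type libraries, while replicates 4 and 5 of wild type and null lay together between 594 and 845 RPM. The RNase change was 1.64 ± 0.47 (SE), adjusted p = 0.0105, and the ΔPAZ change -2.40 ± 0.54 (SE), adjusted p = 0.0177 (edgeR), the latter lost under TMM scaling and without ΔPAZ replicate 1 or 2 (adjusted p up to 0.0841). The RNase call was lost without RNase replicate 3 (1.45, adjusted p = 0.0539). IV:6300001-6400000 in cluster 1 had the same signs. It held 1263, 2366, 2020.2, 2049.8 and 2657 RPM in wild type, 4290.4, 4440.1 and 3508 in the RNase mutant and 615, 446 and 1038 in ΔPAZ, without overlap. The RNase change was 0.98 ± 0.30 (SE), adjusted p = 0.0158, and the ΔPAZ change -1.56 ± 0.33 (SE), adjusted p = 0.0146 (edgeR). The RNase call was lost without RNase replicate 1 or 2 (0.91 at the lowest, adjusted p up to 0.0662), and the ΔPAZ call without ΔPAZ replicate 1 or 2 (adjusted p up to 0.0841).

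Of the 3 bins that rose in ΔPAZ, all outside the clusters, 2 are described. IV:1400001-1500000 held 2327, 1394, 1491, 1168 and 1228 RPM in wild type, 338, 452, 353, 423 and 783 in the null, 384, 501 and 777 in the RNase mutant and 993, 5980.4 and 8636 in ΔPAZ. ΔPAZ replicate 1 lay below the wild type range and the other 2 above it. The change was 1.77 ± 0.44 (SE), adjusted p = 0.0229 in ΔPAZ, lost without ΔPAZ replicate 2 or 3 (adjusted p up to 0.0933), and -1.70 ± 0.40 (SE), adjusted p = 0.00185 in the null (edgeR). The bin IV:13200001-13300000, with 0 piRNA genes, holds ced-3, the caspase gene of programmed cell death, and rpl-12, a ribosomal protein gene. It held 144, 191, 83.5, 132 and 213 RPM in wild type and 164, 313 and 439 in ΔPAZ, with ΔPAZ replicate 1 inside the wild type range. The change was 1.01 ± 0.31 (SE), adjusted p = 0.0454 (edgeR), a call kept only without wild type replicate 3 or 5 or null replicate 3 among the 16 omissions (0.65 to 1.30 over all 16, adjusted p up to 0.163).

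The named falls of ΔPAZ outside the clusters were in 2 further bins near the left end. IV:700001-800000 holds 1 piRNA gene and mrpl-2, a mitochondrial ribosomal protein gene. It held 519.9, 278, 1167, 207 and 218 RPM in wild type, 616, 556, 544, 630.1 and 608 in the null and 88.2, 116 and 129.9 in ΔPAZ. Every ΔPAZ library lay below every library of wild type and null, and the null libraries were close together inside the wild type range. The change was -2.09 ± 0.45 (SE), adjusted p = 0.0153 (edgeR), lost under TMM scaling and without ΔPAZ replicate 1 or 2 (-1.44 at the weakest, adjusted p up to 0.0841). IV:2500001-2600000, with 2 piRNA genes and the nuclear receptor gene nhr-242, held 330.0, 319, 79.6, 312 and 758 RPM in wild type and 50.4, 129.6 and 159 in ΔPAZ. Wild type replicate 3 fell inside the ΔPAZ range. The change was -1.64 ± 0.48 (SE), adjusted p = 0.0389 (edgeR), lost under TMM scaling and without any 1 of wild type replicates 2 and 5, RNase replicates 2 and 3 and ΔPAZ replicates 1 and 2 (-1.17 at the weakest, adjusted p up to 0.172).

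Reads outside the clusters lay mostly in a few bins and varied between libraries of a genotype. IV:12700001-12800000, with small nuclear RNA genes, held 117329, 94415, 272972, 86595 and 57052 RPM in wild type and 195465, 128151, 148425, 20831 and 39427 in the null. RNase libraries held 64221, 70021 and 82396 RPM and ΔPAZ libraries 267489, 122786 and 154191. These ranges overlapped, and no mutant passed the test (-0.24 in the null, adjusted p = 0.773). The bin IV:9300001-9400000, with small nuclear RNA genes, the piezo channel gene pezo-1 and the raptor gene daf-15, held 33326, 28347, 63974, 12352 and 10555 RPM in wild type and 45115, 31831, 30151, 3143 and 5402 in the null. In cluster 1, IV:4700001-4800000, with a small nucleolar RNA gene, the ribosomal protein gene rpl-20 and the mitochondrial enzyme gene ogdh-1, held 19705, 19054, 43602, 7815 and 7905 RPM and 30403, 20266, 24359, 2436 and 4409. In both bins, as in that of the small nuclear RNA genes, replicates 4 and 5 of wild type and of the null were the lowest of their group, and no mutant passed the test. With replicates 1 to 3 of each genotype, a choice made after seeing the data, the RNase mutant was lower than wild type in the cluster 1 bin (-1.37, adjusted p = 0.0162, edgeR). The bin IV:3000001-3100000, the other most-read bin outside the clusters, holds no piRNA gene and held 1770.1, 3209, 1386, 4835 and 4549.7 RPM in wild type. There replicates 4 and 5 were the highest of the wild type and of the null, with no call in any mutant. The sum of the rest of chromosome IV was 213710 ± 94489 RPM in wild type and 198673 ± 86132 in the null (exact permutation p = 0.786). The reads of cluster 2 relative to the rest, as a log2 ratio within each library, were -3.82 ± 0.80 in wild type, -4.00 ± 0.78 in the null, -3.56 ± 0.12 in the RNase mutant and -4.75 ± 0.50 in ΔPAZ. No pair of genotypes passed the threshold in this ratio (lowest exact permutation p = 0.1, adjusted 0.375), nor in cluster 2 relative to cluster 1 (lowest exact p = 0.107, adjusted 0.54). With 3 libraries against 3, the smallest p possible was 0.1.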

How the data were processed

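Small RNA reads of 16 libraries of whole males were deposited by the authors as raw counts per 100 kb bin, with each library's total on the first data line, which names the assembly ce11. The submitters' processing notes list cutadapt 3.7 and FastQC 0.12.0. Not given in the sources used here are the aligner, its mismatch limit and the placing of reads with several matches, so bins that hold repeated or near-identical genes are uncertain.

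Counts were divided by the library total to give reads per 1000000 (RPM). Bins with at least 10 reads in at least 3 libraries were tested with edgeR 4.0.16 (quasi-likelihood, all 16 libraries, library totals without further factors, Benjamini-Hochberg adjustment over 1006 bins, threshold 0.05) in R 4.3.3. The SE printed beside an edgeR log2 fold change is its absolute value divided by the square root of that test's F statistic. Interval sums and ratios were compared by exact two-sided permutation tests over libraries, adjusted over the 6 pairs of genotypes (Python 3.11.15, pandas 2.3.3, SciPy 1.17.1). Alternatives included TMM factors, DESeq2 1.42.0, other filters and totals, fewer libraries, a replicate block and leaving out each library. limma 3.58.1 was loaded with edgeR.

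Genes were assigned to bins by their midpoint from the Ensembl release 115 annotation of WBcel235, the same assembly. Named bins were, for each mutant and interval, the 3 called bins with the largest rise and the 3 with the largest fall, the 3 bins of each interval with most reads in wild type, and the 3 of each cluster with most piRNA genes. The intervals, members and lists were chosen with earlier results of these data known.

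Depth was 396813 to 2288967 reads. The 95% Wilson interval of a cluster 2 sum reached at most 3.29% of its value to either side and covers counting error only, since reads without molecular identifiers are not independent molecules. No 2 replicates of a genotype agreed within sampling noise (lowest chi-square per degree of freedom 41.2). On simulated data for null against wild type over 1006 bins, 76% of bins changed 2-fold and 100% of bins changed 4-fold were recovered, and 8 of 806 unchanged bins were called. The simulation drew every bin independently, without the shared differences in library make-up seen here. Its rates therefore need not hold for these data. Motif counts and sequences were not analysed here, and the deposited table of reads per piRNA was not used. The result of 1 bin that the rule names is not reported here.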

Additional observations from a re-analysis of the deposited data

Results flagged for a closer look

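Of 100 groups of 5 libraries examined (interval sums, their ratios and named bins, in wild type and null), 10 held a library far from the other 4. Chance gives about 1 in 20 for independent groups. These groups share libraries and the sums include named bins, so the count cannot be set against that rate.

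Wild type replicate 3 accounted for 4 of them. Its sum over the rest of chromosome IV was 376394 RPM (others 138218 to 204177), and its small nuclear RNA bin IV:12700001-12800000 held 272972 RPM (others 57052 to 117329). It was the lowest wild type library in IV:5600001-5700000, the skn-1 bin of cluster 1, at 153 RPM (others 335 to 380), and in IV:1600001-1700000, at 126 RPM (others 261 to 313). In the latter bin null replicate 2 was the highest of its group, at 67.3 RPM (others 48.9 to 50.6).

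Wild type replicate 1 was the highest of its group in IV:6800001-6900000, at 514 RPM (others 157 to 189), and in IV:1400001-1500000, at 2327 RPM (others 1168 to 1491). In that bin null replicate 5 was the highest null library, at 783 RPM (others 338 to 452). Wild type replicate 2 held 2390 RPM in the snr-1 bin IV:17000001-17100000 (others 1208 to 1376). Null replicate 3 was the lowest null library in the major sperm protein bin IV:5000001-5100000, at 2155 RPM (others 2880.1 to 3125).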

How the results depend on the processing

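The counts of bins called in the null stayed within 1.5 times in cluster 2 under every setting run (23 to 26 when 1 library was left out). ΔPAZ had the shallowest libraries (396813 to 954712 reads). Causes of the changes below were not tested.

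Bins called in ΔPAZ, 2 in cluster 1, 5 in cluster 2 and 14 in the rest, became 1, 1 and 7 with TMM factors. They became 1 in cluster 1 and 3 in cluster 2 with DESeq2 and also with totals without the 3 most-read bins. The 13 libraries taken as those of the design text gave 3 in cluster 2 and 6 in the rest, and replicates 1 to 3, chosen after seeing the data, gave 8 in the rest.
Leaving out 1 library gave, for cluster 1, cluster 2 and the rest, 6 to 11, 23 to 26 and 32 to 41 bins in the null, 3 to 11, 6 to 11 and 19 to 36 in the RNase mutant, and 0 to 10, 0 to 19 and 1 to 43 in ΔPAZ.

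Replicate numbers did not pair the libraries (20 same-numbered pairs, r from -0.32 to 0.35, 5 over 0.1, of which 4 were among the 5 pairs of wild type with null), and 2 of 5 wild type and 0 of 5 null libraries correlated best with their own number. The null libraries nevertheless split into replicates 1 to 3 and replicates 4 and 5. Chi-square per degree of freedom was 41.2 to 75.2 among the former, 58.9 between the latter and 421 to 631 across. In wild type these values were 198 to 356, 147 and 222 to 494. RNase and ΔPAZ have replicates 1 to 3 only, so their contrasts with wild type and null mix genotype with this split. Its cause was not tested. With the replicate block, calls in ΔPAZ were 1 in cluster 2 and 6 in the rest, and the null had 26 in cluster 2. The block gained a lower call in the RNase mutant at IV:4700001 (-1.57, adjusted p = 0.0137, edgeR) and IV:9300001 (-1.37, adjusted p = 0.0438), and lost calls in the RNase mutant at IV:4900001 and IV:5500001 and in ΔPAZ at IV:1400001, IV:2500001, IV:13200001, IV:14000001, IV:16400001 and IV:17000001. It turned the sign of 3 uncalled values: IV:14700001 in the RNase mutant (0.27), IV:15800001 in the RNase mutant (-0.023) and IV:12700001 in ΔPAZ (-0.077).

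As log2 ratios to wild type, the cluster 2 sum of the null passed the threshold without the interval's most-read bin (-0.53) and with totals without 3 bins (-0.36). Without the most-read bin the sign turned for RNase in cluster 1 (-0.37) and in the rest (0.087), null in the rest (0.067), ΔPAZ in the rest (-0.18), and RNase cluster 2 over the rest (-0.11) and over cluster 1 (0.26). Totals without 3 bins turned the rest in the null (0.028), RNase (0.026) and ΔPAZ (-0.043). TMM library sizes turned RNase cluster 2 (0.087) and null rest (0.12), and replicates 1 to 3 turned null rest (0.0058). ΔPAZ cluster 2 over cluster 1 turned with narrowed clusters (0.081) and with 13 libraries or replicates 1 to 3 (0.18).
Leaving out 1 library gave, for null, RNase and ΔPAZ, 0.01 to 0.29, 0.50 to 0.76 and -0.67 to -0.20 in cluster 1, and -0.43 to -0.26, -0.13 to 0.048 and -0.80 to -0.50 in cluster 2. In the rest these were -0.31 to 0.20, -0.49 to -0.06 and -0.0089 to 0.58. Cluster 2 over the rest gave -0.51 to 0.013, -0.068 to 0.45 and -1.27 to -0.66, and cluster 2 over cluster 1 gave -0.69 to -0.30, -0.93 to -0.57 and -0.40 to 0.068.

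Of 1989 alternative values for named bins, 1799 kept direction and side of the threshold, 133 lost a call, 20 gained one and 37, all of uncalled values, changed sign. The sign turned with TMM factors for ΔPAZ at IV:4700001 (0.20), IV:5000001 (0.24) and IV:9300001 (0.25), RNase at IV:5700001 (0.00010) and IV:14700001 (0.10), and null at IV:14000001 (0.10) and IV:3000001 (0.067). DESeq2 turned the same ΔPAZ bins (0.18, 0.21 and 0.24), IV:14000001 in the null (0.0078) and IV:14700001 in RNase (0.038). Totals without 3 bins turned ΔPAZ at IV:5000001 (0.0031) and IV:9300001 (0.040). The 13 libraries, or replicates 1 to 3, turned RNase at IV:14700001 (0.34 in both) and null at IV:3000001 (0.17 and 0.070). Leaving out 1 library gave, at IV:4700001, -0.61 to 0.27 in the null and -0.45 to 0.46 in ΔPAZ, and at IV:9300001 -0.75 to 0.13 and -0.46 to 0.47. It gave -0.23 to 0.012 for RNase at IV:5700001, -0.36 to 0.17 for RNase at IV:14700001 and -0.58 to 0.26 for null at IV:12700001.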
